A study of Mus musculus with 6 samples.

Results

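The N-module of respiratory complex I, together with its late assembly factor, was followed at the level of mRNA in B16-BL6 cells, a mouse melanoma line. The 9 genes were picked by name and function, with earlier results of these data known: Ndufs4, Ndufs6, Ndufa12, Ndufv1, Ndufv2, Ndufv3, Ndufs1, Ndufa2 and the assembly factor Ndufaf2. All 9 were present among the 22535 gene rows of the deposited table, and all 9 passed the filter of an average of 1 CPM or more (a gene's reads scaled to a fixed total of reads in genes) over the 6 libraries. B16-BL6 with a guide RNA against Ndufs4 (genotype label sgNDUFS4, n = 3 libraries) was set against B16-BL6 with a control guide (genotype label sgControl, n = 3 libraries). Both lines were grown in the same serum-supplemented medium with sodium pyruvate, and polyadenylated RNA was sequenced without keeping the strand. The labels name the genotype by the guide alone: the sequence of the guide, its cut site, and whether each line is 1 clone or a pool are not stated in the labels. The series profiled them to ask which transcripts differ in sgNDUFS4 cells, which were seen to be immunogenic.

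Complex I is the entry point of the mitochondrial respiratory chain, and its N-module is the tip of the matrix arm, where NADH is oxidised. Ndufv1 holds the flavin that takes the electrons from NADH, and Ndufv1, Ndufv2 and Ndufs1 carry the iron-sulfur clusters that pass them on toward the Q module, where ubiquinone is reduced. The N-module is assembled apart and joined to the rest of the complex late. Ndufs4, an accessory subunit at the border of the N and Q modules, stabilises that joint, and its loss causes Leigh syndrome in humans and a Leigh-like disease in mice. Ndufaf2 is a paralog of Ndufa12 that occupies the place of Ndufa12 on the immature complex and leaves when the last subunits come in.

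Reads in genes numbered 20090607 in the smallest and 25947374 in the largest library. Each value of a member rested on at least 382 reads, reached by Ndufs4 in sgNDUFS4, and on at most 7122 reads, reached by Ndufs1 in sgNDUFS4. The pigment cell identity of the line was visible in all libraries: 7 of 7 listed melanocyte lineage genes were tested, and their summed level was between 14500 and 15500 CPM in sgNDUFS4 and between 15400 and 15900 CPM in sgControl. The sum is made up mostly of Pmel, Tyrp1 and Dct, and its members differed in direction. Mitf and Pmel were called higher in sgNDUFS4, and Sox10, Mlana, Dct, Tyrp1 and Tyr were called lower. Over all genes tested, 31.8% were called higher and 20.3% lower. Pmel was at 5510 ± 265 CPM in sgNDUFS4 and 4360 ± 84.4 CPM in sgControl, and Tyr, the key enzyme of melanin synthesis, at 3.1 ± 0.436 CPM in sgNDUFS4 and 32.3 ± 1.57 CPM in sgControl (SD, n = 3 each; limma adjusted p = 1.1e-10 and 5.3e-17). Of 6 immune markers, the T-cell gene Cd3e was at 0 in every library, and the sum was between 2.12 and 7.28 CPM in sgNDUFS4 and between 4.85 and 7.52 CPM in sgControl. Cd68, the highest of them, was called lower at 2.64 ± 1.34 CPM in sgNDUFS4 and 4.84 ± 1.43 CPM in sgControl, with overlapping groups (limma adjusted p = 0.0082). Adgre1 did not pass. Of 5 fibroblast markers, Dcn and Lum were at 0, and the sum was between 41.4 and 46.1 CPM in sgNDUFS4 and between 41.8 and 44.1 CPM in sgControl, led by Col1a2. Of 4 epithelial markers, Krt18 was at 0, and the sum was between 0.308 and 1.13 CPM in sgNDUFS4 and between 1.17 and 6.27 CPM in sgControl. Cdh1 and Krt8 were called lower, both at low levels. Cdh1 was at 0.647 ± 0.429 CPM in sgNDUFS4 and 1.75 ± 0.53 CPM in sgControl (limma adjusted p = 0.0086). Krt8 was at 0 in the sgNDUFS4 libraries and at 4.38, 2.748 and 0 CPM in the sgControl libraries (limma adjusted p = 0.0024). All 3 endothelial markers were at 0.

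The promoters of Ndufs4 and Ndufs6 are shown because these are the members with the largest fall and the largest rise on the deposited scale, and both lie on chromosome 13. RefSeq (GRCm38.p6) gives windows of 300 bases, from 250 before to 50 after the annotated start, for 7 of the 9 genes, while Ndufs1 and Ndufa2 had no entry. The Ndufs4 window is chr13:114388045-114388344 and the Ndufs6 window is chr13:73328433-73328732, each on the minus strand and printed 5′ to 3′ along the gene. Capitals mark AAGATGGCG, a core of the motif of the transcription factor YY1.
Ndufs4: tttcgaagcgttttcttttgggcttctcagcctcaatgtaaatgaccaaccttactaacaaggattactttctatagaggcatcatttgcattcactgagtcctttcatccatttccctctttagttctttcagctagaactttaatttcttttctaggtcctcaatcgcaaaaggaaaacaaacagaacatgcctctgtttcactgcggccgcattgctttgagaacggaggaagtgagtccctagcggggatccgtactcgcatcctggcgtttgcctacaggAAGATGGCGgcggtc
Ndufs6: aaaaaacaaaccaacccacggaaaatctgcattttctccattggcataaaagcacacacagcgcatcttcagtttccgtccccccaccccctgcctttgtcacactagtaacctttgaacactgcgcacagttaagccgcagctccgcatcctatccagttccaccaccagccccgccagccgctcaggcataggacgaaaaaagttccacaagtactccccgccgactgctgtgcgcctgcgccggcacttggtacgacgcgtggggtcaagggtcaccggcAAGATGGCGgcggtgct

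The capitals are the opening letters of the longest run that these windows share, AAGATGGCGGCGGT, which is 14 bases long. That run was found by comparing the windows after the values were known. On the printed strand, 3 of 32851 windows of the same length in the RefSeq table hold it (0.00913%). The Ndufs4 and Ndufs6 windows are among these 3 by construction. The capitals begin at base 286 of the Ndufs4 window and base 284 of the Ndufs6 window, after the annotated start. The core AAGATGGCG on either strand was present in 461 of 32851 windows (1.4%) and in 2 of the 7 windows of the members. The motif GGGCGG of the SP1 family, on either strand, was present in 35.7% of all windows and in those of Ndufa12, Ndufaf2, Ndufv3 and Ndufv2. The palindromic motif of the nuclear respiratory factor NRF1, present in 0.971% of windows, CCGGAAG of GABPA, present in 8.86%, and AAGGTCA of ESRRA, present in 4.72%, were found in none of the 7 on either strand, so that no match of these overlapped the capitals. TGCGCA, a short part of NRF1 sites present in 7.76% of windows, was found in the Ndufs6 window alone among the 7, apart from its capitals. These matches describe letters only. The windows were picked for the largest fall and the largest rise, so the opposite directions of Ndufs4, which is also the gene the guide targets, and Ndufs6 say nothing about the motif.

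The targeted gene was lower in every library with the guide against it, and its mRNA was still present. Ndufs4 (ENSMUSG00000021764.8) spans bases 114287795 to 114388258 of the minus strand of chromosome 13 in GRCm38, the build of all positions here. It was at 14.99, 15.98 and 16.84 CPM in the sgNDUFS4 libraries, against 54.3, 55.05 and 52.39 CPM in the sgControl libraries. The groups lay far apart, and the sgNDUFS4 libraries kept 27.8%, 29.6% and 31.2% of the sgControl mean. The log2 fold change of sgNDUFS4 over sgControl, on the log2(CPM + 0.5) scale used throughout, was -1.73 (SE 0.0764, 95% confidence interval -1.89 to -1.57, limma adjusted p = 5.9e-16). Only 85 of 11063 tested genes (0.768%) had a log2 fold change at or below this value. In RNA from whole cultures, less of the transcript per cell and fewer cells with the transcript cannot be told apart. The counts do not say whether the remaining transcripts can be translated.

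Most of the other members were higher. With limma, 6 of the 9 genes were higher in sgNDUFS4 (Ndufs6, Ndufv3, Ndufaf2, Ndufa2, Ndufv1 and Ndufs1), 1 was lower (Ndufs4) and 2 did not pass (Ndufa12 and Ndufv2). Of all genes tested, 52.0% were called, 31.8% higher and 20.3% lower, so that a call by itself was common in this comparison. With TMM scaling, which puts the median log2 fold change of all genes at 0.00 in place of 0.06, 5 members were higher and 2 lower, against 24.8% and 25.9% of all genes. Among all calls, 48.9% were higher with TMM and 61.1% as deposited. On recovered reads edgeR called 24.6% of genes higher and 25.9% lower, and the members divided as with TMM. The libraries of the groups did not overlap in 7 members that were higher and in 1 that was lower, where the shares over all genes tested were 35.0% and 22.2%. The plot of member levels by library shows these values.

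**Figure D1:**
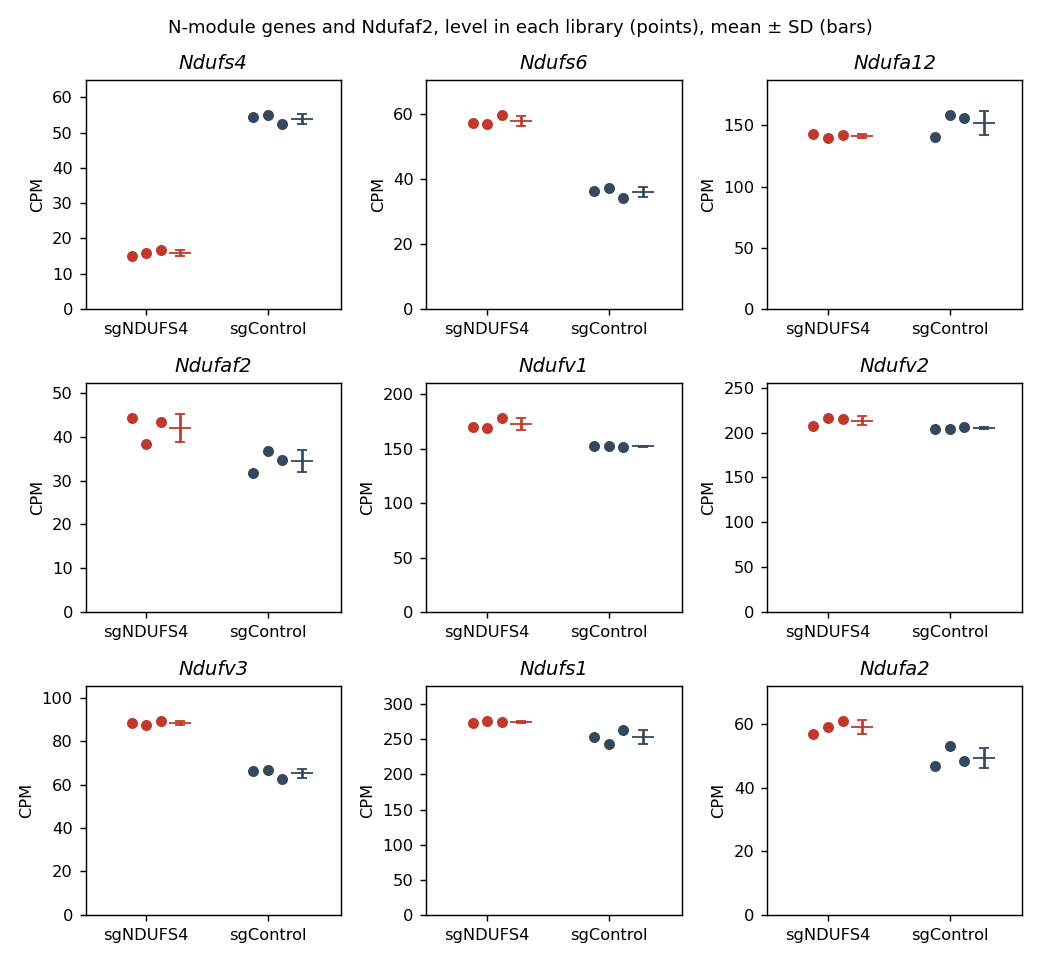
CPM of the 9 genes in each library (y axis, starting at 0), with sgNDUFS4 on the left and sgControl on the right of each panel. Points are libraries and the bars beside them are mean ± SD (n = 3). Ndufs4 is at 15.9 against 53.9 CPM, Ndufs6 at 57.9 against 35.9 CPM, and the Ndufa12 libraries overlap.

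Ndufs6 had the largest rise of the 9 genes on the deposited scale, but not after centring on neighbours, where it was at 0.24 and Ndufv3 at 0.38. Ndufs6, a small zinc-binding subunit that joins late (ENSMUSG00000021606.8, chromosome 13, 73319838 to 73328542, minus strand), was at 57.09, 57.0 and 59.74 CPM in sgNDUFS4, against 36.24, 37.25 and 34.16 CPM in sgControl. The lowest sgNDUFS4 library was well above the highest sgControl library. Its log2 fold change was 0.68 (SE 0.0627, limma adjusted p = 1.1e-09), and 4.74% of tested genes had one at or above it. A processed pseudogene, Ndufs6b, matches 372 bases of Ndufs6 at 90.3% identity, and its reads were not analysed here.

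Ndufa12 did not pass the test on the deposited scale. Ndufa12, which takes its place at the border of the N-module as the complex matures (ENSMUSG00000020022.17, chromosome 10, 94198720 to 94221443, plus strand), was at 142.8, 139.6 and 142.2 CPM in sgNDUFS4, against 140.8, 158.6 and 156.1 CPM in sgControl. The groups overlapped, because sgControl replicate 1 lay among the sgNDUFS4 libraries. The log2 fold change was -0.10 (SE 0.0448, 95% confidence interval -0.19 to -0.01, limma adjusted p = 0.067). It was -0.16 with TMM scaling (limma adjusted p = 0.0049), where the gene was called lower, and -0.15 without sgControl replicate 1 (limma adjusted p = 0.0071). A processed pseudogene, Gm15920, matches 402 bases of Ndufa12 at 99.5% identity, so that reads may be divided between them.

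The assembly factor was higher as deposited, but not when set against its neighbours on the chromosome. Ndufaf2 (ENSMUSG00000068184.7, chromosome 13, 108002715 to 108158623, minus strand) was at 44.35, 38.31 and 43.28 CPM in sgNDUFS4, against 31.76, 36.82 and 34.7 CPM in sgControl. The groups did not overlap, although the lowest sgNDUFS4 library was close to the highest sgControl library. Its log2 fold change was 0.28 (SE 0.0744, limma adjusted p = 0.0025). Centred on its 50 nearest tested genes it was -0.17 (limma adjusted p = 0.07), which turned the direction and ended the call. The exons of an antisense lincRNA, B230220B15Rik, cover 65.65% of the joined exon length of Ndufaf2, and without strand their reads cannot be told apart.

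Set against its paralog in the same library, which removes any effect of library scaling, Ndufaf2 stood at 0.31, 0.274 and 0.304 of the Ndufa12 CPM in sgNDUFS4. In sgControl the ratio was 0.226, 0.232 and 0.222. All 3 sgNDUFS4 ratios lay above all 3 sgControl ratios, with means of 0.296 ± 0.0193 and 0.227 ± 0.00504 (SD, n = 3 each). The log2 difference was 0.39 (two-sided exact permutation test, p = 0.1, the smallest p that 3 against 3 libraries allow). The ratio joins a gene of chromosome 13 with a gene of chromosome 10. The 50 tested genes nearest to each had median log2 fold changes of 0.48 around Ndufaf2 and 0.02 around Ndufa12. Centred on these neighbours, Ndufaf2 was at -0.17 and Ndufa12 at -0.14, and the part of the neighbourhood in the ratio was not tested.

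The core subunits that carry the flavin and the iron-sulfur clusters differed little. Ndufv1, the NADH-binding flavoprotein (ENSMUSG00000037916.14, chromosome 19, 4007384 to 4012806, minus strand), was at 170.2, 168.8 and 178.6 CPM in sgNDUFS4, against 152.1, 152.9 and 151.3 CPM in sgControl. The sgControl values were tightly grouped and all sgNDUFS4 values were above them, with a log2 change of 0.18 (SE 0.0393, limma adjusted p = 4.2e-04). Ndufs1, the largest subunit of the N-module (ENSMUSG00000025968.16, chromosome 1, 63143596 to 63176833, minus strand), was at 272.6, 276.7 and 274.5 CPM in sgNDUFS4, against 252.9, 242.9 and 263.8 CPM in sgControl. The log2 fold change was 0.12 (SE 0.0359, limma adjusted p = 0.0079), and it was 0.06 with TMM scaling (limma adjusted p = 0.19) and 0.09 without sgControl replicate 2 (limma adjusted p = 0.06), where the call was lost. An antisense lincRNA, Ino80dos, shares 489 exon bases with Ndufs1, 6.05% of its joined exon length. Without strand, reads from these bases cannot be told apart.

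Ndufv2, the partner of Ndufv1 that holds a further iron-sulfur cluster (ENSMUSG00000024099.15, chromosome 17, 66078638 to 66101559, minus strand), was at 207.3, 216.7 and 215.0 CPM in sgNDUFS4, against 204.2, 204.4 and 206.0 CPM in sgControl. The groups did not overlap, but the gap between them was small, and the log2 fold change of 0.06 did not pass (95% confidence interval -0.02 to 0.13, limma adjusted p = 0.2). With TMM scaling it was -0.00 (limma adjusted p = 0.94), so that no direction can be given.

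The remaining accessory subunits were higher. Ndufv3, a small subunit of the flavoprotein part with alternative isoforms that gene counts do not separate (ENSMUSG00000024038.17, chromosome 17, 31520115 to 31531331, plus strand), was at 88.2, 87.62 and 89.45 CPM in sgNDUFS4, against 66.15, 66.63 and 62.53 CPM in sgControl. Its groups were well apart, with a log2 change of 0.44 (SE 0.0505, limma adjusted p = 6.4e-08), and 12.7% of tested genes had one at or above it. Ndufa2, a small subunit with a thioredoxin-like fold that binds Ndufs1 (ENSMUSG00000014294.4, chromosome 18), was at 56.98, 59.18 and 61.12 CPM in sgNDUFS4, against 46.84, 53.02 and 48.35 CPM in sgControl. All sgNDUFS4 libraries were above all sgControl libraries, with a log2 change of 0.26 (SE 0.0611, limma adjusted p = 9.8e-04). An end of Ndufa2 overlaps the opposite-strand gene Tmco6 by 66 exon bases, 11.54% of its exon length.

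In the summed reads of the 9 genes, Ndufs4 had the largest shift of any share, and shares of other genes shifted too. Shares of the same sum are tied, so a lower Ndufs4 share by itself raises the shares of the other genes. The 9 genes summed to 1065 ± 13.8 CPM in sgNDUFS4 and 1001 ± 13.4 CPM in sgControl (SD, n = 3 each). The Ndufs4 share of that sum was 1.5% ± 0.0693 in sgNDUFS4 and 5.39% ± 0.173 in sgControl. The share of Ndufs6 was 5.44% ± 0.078 in sgNDUFS4 and 3.59% ± 0.175 in sgControl, so that Ndufs6 reads outnumbered Ndufs4 reads in sgNDUFS4 and not in sgControl. The read share of Ndufa12 was 13.3% ± 0.22 in sgNDUFS4 and 15.2% ± 0.771 in sgControl. Ndufv3 held 8.3% ± 0.0528 in sgNDUFS4 and 6.51% ± 0.275 in sgControl, and Ndufv1 16.2% ± 0.304 and 15.2% ± 0.224. The share of Ndufs1, 25.8% ± 0.359 in sgNDUFS4 and 25.3% ± 1.06 in sgControl, differed by less than its sgControl SD. Ndufv2 held 20.0% ± 0.402 in sgNDUFS4 and 20.5% ± 0.228 in sgControl. Long genes collect more reads, so these shares are shares of reads and not of mRNA molecules.

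Levels between genes were compared per kilobase of exon. Over the joined exons of all transcripts, the highest sgControl levels were those of Ndufa12 (96.8 ± 6.15 CPM per kb), Ndufv2 (95.4 ± 0.455) and Ndufa2 (86.4 ± 5.63), and the first pair differed by less than its spread (SD, n = 3). Ndufv1 (57.8 ± 0.303), Ndufs6 (40.0 ± 1.75) and Ndufs1 (31.3 ± 1.29) came next. Ndufv3 (20.4 ± 0.702) and Ndufs4 (19.9 ± 0.507) also differed by less than their spread, and Ndufaf2 was lowest at 11.6 ± 0.855 CPM per kb. In sgNDUFS4 the place of the lowest passed to Ndufs4, at 5.88 ± 0.342 CPM per kb, below Ndufaf2 at 14.1 ± 1.08 CPM per kb. The order of the other genes depends on the length used: 4 of 9 genes kept their sgControl rank with the longest single transcript, and Ndufs1, whose joined exons span 8086 bases and whose longest transcript has 2661, then stood at 95.1 ± 3.92 CPM per kb in sgControl.

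The members on chromosome 13 lie among genes that were mostly higher. Ndufs4, Ndufs6 and Ndufaf2 are on chromosome 13, where the 372 tested genes had a median log2 change of 0.37. The 50 tested genes nearest to Ndufs4 had a median of 0.49, with 44 called higher, against 31.8% called higher over all genes. All 50 had a log2 fold change above that of Ndufs4. The nearest tested protein-coding genes on each side were Gpx8, Snx18 and Arl15, and Mocs2, Pelo and Itga1. Mocs2, an enzyme subunit of molybdenum cofactor synthesis whose start lies 0.43 Mb from that of Ndufs4, was at 54.23, 60.64 and 54.96 CPM in sgNDUFS4, against 36.93, 41.86 and 40.22 CPM in sgControl. The 6 neighbours had log2 fold changes between 0.38 (Snx18, limma adjusted p = 0.0018) and 0.56 (Itga1, limma adjusted p = 2.3e-04), and all 6 were called higher, although Arl15 was not with edgeR and DESeq2 (adjusted p = 0.052 in each) nor without sgControl replicate 2, sgNDUFS4 replicate 2 or sgNDUFS4 replicate 3 (limma adjusted p of 0.08, 0.065 and 0.068). After centring on their own neighbours the 6 lay between -0.07 (Snx18) and 0.11 (Itga1) and none passed with limma. Centred on its 50 nearest genes library by library, a fit in which 21.4% of genes were called higher and 22.8% lower, the log2 fold change of Ndufs4 was -2.19 (SE 0.0761, limma adjusted p = 1.6e-18).

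The neighbourhoods of Ndufs6 and Ndufaf2 were raised as well. That of Ndufaf2 shares most of its genes with that of Ndufs4, so they are not separate observations. Of the 50 genes nearest to Ndufs6, 35 were called higher and 2 lower, with a median log2 change of 0.47, and Ndufs6 stood above 74% of them. Centred on them it was still called higher, at 0.24 (SE 0.0673, limma adjusted p = 0.0055). Of the 50 genes nearest to Ndufaf2, 43 were called higher and 1, Ndufs4 itself, was called lower, with a median of 0.48. Ndufaf2 stood above 20% of them. Centred on them its log2 fold change was -0.17 (SE 0.0762, limma adjusted p = 0.07), so that its direction turned and its call was lost. A change of the region and a change of these genes themselves cannot be told apart in this design. DNA copy number was not analysed here.

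**Figure D2:**
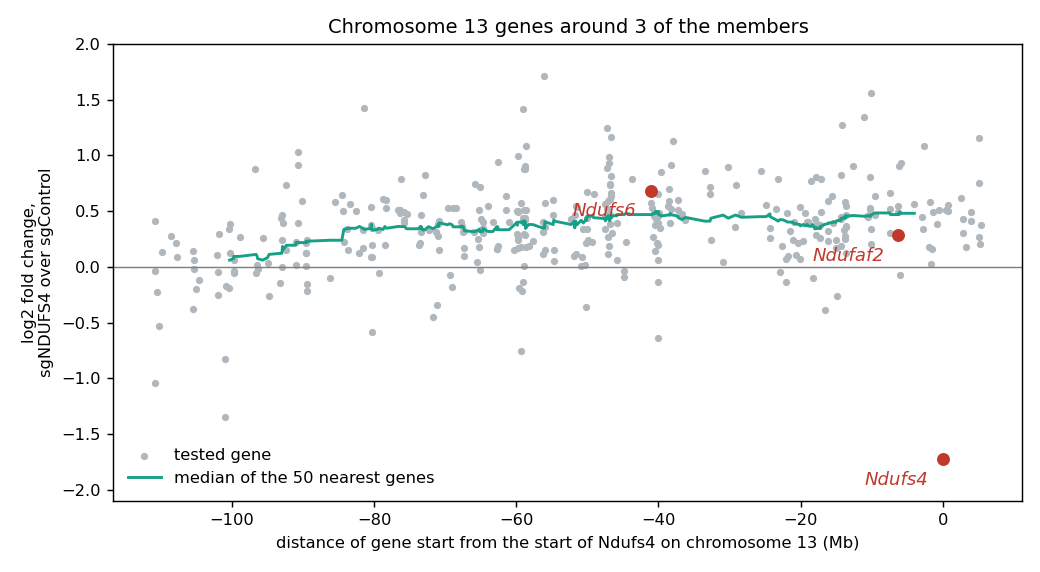
Log2 fold change, sgNDUFS4 over sgControl, of each tested gene on chromosome 13 (y axis) by the distance of its start from that of Ndufs4 in Mb (x axis). The line is the median of the 50 nearest genes, and the red points are Ndufs4 at -1.73, Ndufs6 at 0.68 and Ndufaf2 at 0.28. The line is drawn only where equal numbers of genes lie on both sides. It ends at Plk2, at -3.993 Mb, and does not reach Ndufs4. Ndufs4 lies far below the median of 0.49 given in the text for its 50 nearest genes.

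Away from chromosome 13 the neighbourhoods were close to 0 and the members' values moved little. The median over the 50 nearest genes was between -0.02 and 0.11 for the 6 members on other chromosomes. After centring on them, Ndufv3 was at 0.38 (limma adjusted p = 1.4e-06), Ndufv1 at 0.22 (adjusted p = 1.8e-04), Ndufa2 at 0.23 (adjusted p = 0.008) and Ndufs1 at 0.12 (adjusted p = 0.016), all still higher. Ndufa12 was at -0.14 (adjusted p = 0.017) and was then called lower, and Ndufv2 was at -0.06 (adjusted p = 0.22). The plot of the members under the scalings sets these values side by side.

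**Figure D3:**
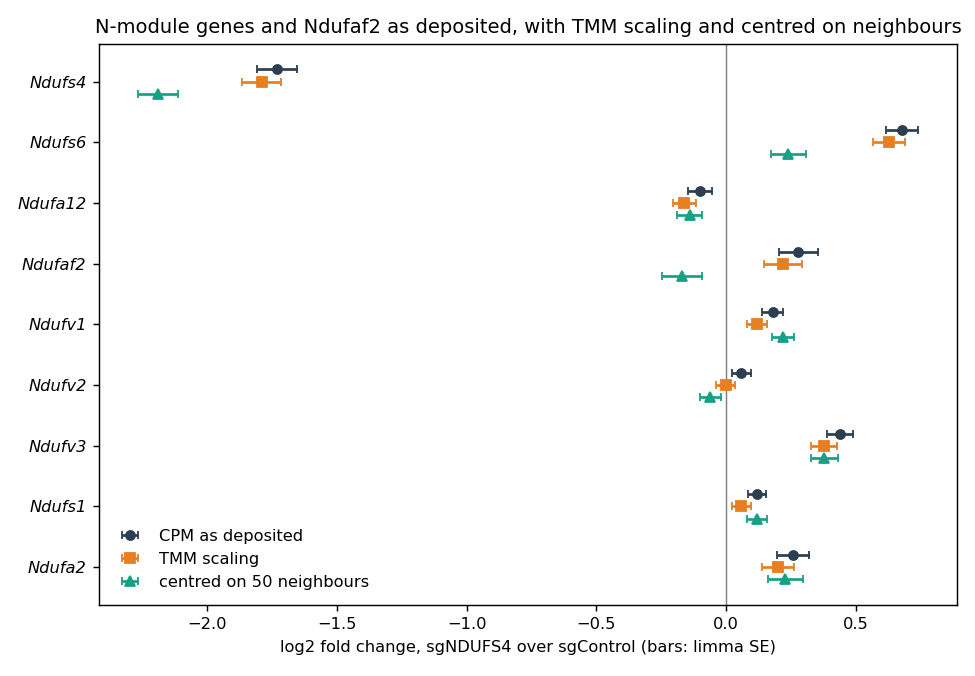
Log2 fold change of each gene, sgNDUFS4 over sgControl (x axis), from CPM as deposited, with TMM scaling and after centring on the 50 nearest tested genes. Bars are the limma SE. Ndufaf2 crosses 0 after centring, from 0.28 to -0.17, and Ndufs6 moves to 0.24, while Ndufv3 stays between 0.38 and 0.44.

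Several members share a start region with a gene on the opposite strand. Mrpl36, a mitochondrial ribosomal protein gene whose opening exon overlaps Ndufs6 by 30 bases, was at 28.74, 34.8 and 31.49 CPM in sgNDUFS4, against 21.55, 23.34 and 18.54 CPM in sgControl. It was called higher, with a log2 change of 0.57 (limma adjusted p = 1.0e-05), beside 0.68 for Ndufs6, and after centring it was at 0.13 and did not pass (limma adjusted p = 0.3). Ercc8, a DNA repair gene that starts 108 bases upstream of Ndufaf2, averaged 13.5 ± 1.23 CPM in sgNDUFS4 and 9.51 ± 1.66 CPM in sgControl (SD, n = 3 each), with a log2 change of 0.50 (limma adjusted p = 0.0024), beside 0.28 for Ndufaf2. After centring Ercc8 was at 0.06 and did not pass (limma adjusted p = 0.76), beside -0.17 for Ndufaf2. Ik, a splicing factor gene that starts 99 bases upstream of Ndufa2, had 0.24 (limma adjusted p = 2.1e-05), beside 0.26 for Ndufa2. The other pairs went opposite ways. Wdr4, a subunit of a tRNA methyltransferase that starts 135 bases upstream of Ndufv3, was at 85.29, 86.78 and 82.01 CPM in sgNDUFS4, against 115.3, 101.0 and 94.94 CPM in sgControl, a log2 change of -0.29 (limma adjusted p = 1.4e-04), where Ndufv3 had 0.44. Eef1b2, a translation elongation factor gene that overlaps Ndufs1 by 9 exon bases, had -0.08 (limma adjusted p = 0.021), where Ndufs1 had 0.12. The Eef1b2 groups overlapped, and its call was lost without sgControl replicate 1 or 3 or sgNDUFS4 replicate 1 or 3 (limma adjusted p of 0.072, 0.083, 0.13 and 0.065).

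The rest of complex I gives the setting for these values. Of 27 tested nuclear subunits of the Q module and the membrane arm, 14 were higher and 4 lower, with a median log2 change of 0.15, beside 0.18 for the 9 genes above and 0.06 for all genes tested. For each list here, the shares called over all genes tested were 31.8% higher and 20.3% lower. With TMM scaling 12 were higher and 5 lower, against 24.8% and 25.9% of all genes. In the Q module and its border with the N-module, 3 of 8 were higher and 1 was lower, with a median of 0.03. Ndufa7 and Ndufa6, accessory subunits of the matrix arm, averaged 58.8 ± 1.95 and 60.5 ± 3.07 CPM in sgNDUFS4 and 45.0 ± 1.43 and 48.1 ± 2.17 CPM in sgControl (SD, n = 3 each; limma adjusted p = 6.4e-06 and 5.6e-05). Centring moved the log2 fold change of Ndufa7 to 0.17, against 0.38 as deposited, and that of Ndufa6 to 0.60, against 0.33, and both stayed called. Ndufs7, an iron-sulfur core subunit next to the ubiquinone site, fell to 92.8 ± 2.62 CPM in sgNDUFS4, against 112 ± 7.76 CPM in sgControl (limma adjusted p = 6.1e-05), with log2 fold changes of -0.27 as deposited and -0.16 after centring (limma adjusted p = 0.016).

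In the membrane arm list, 11 of 19 tested subunits were higher and 3 lower, with a median of 0.18. The list counts Ndufa9, which belongs to the matrix arm next to the Q module. The counts and medians of this list and of the Q module depend on that placement. After centring on neighbours 8 were called higher and the 3 lower calls were lost, where 21.4% of all genes were called higher and 22.8% lower. On the log2 scale Ndufb5 rose by 0.52 and Ndufa9 by 0.37, and Ndufb11, on chromosome X, fell by 0.55. After centring on neighbours Ndufb5, on chromosome 3, was at 0.12 and did not pass (limma adjusted p = 0.056), and Ndufb11 was at 0.25 and called higher (limma adjusted p = 5.5e-04). Ndufb9 was at 163 ± 4.69 CPM in sgNDUFS4 and 158 ± 9.2 CPM in sgControl and did not pass. On the deposited scale the log2 fold changes of the 27 subunits lay between -0.61 and 0.52, with Ndufs6 above them at 0.68 and Ndufs4 below them at -1.73. After centring Ndufs6, at 0.24, was no longer above all of them: Ndufa6 was at 0.60, Ndufa9 at 0.36 and Ndufb11 at 0.25.

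**Figure D4:**
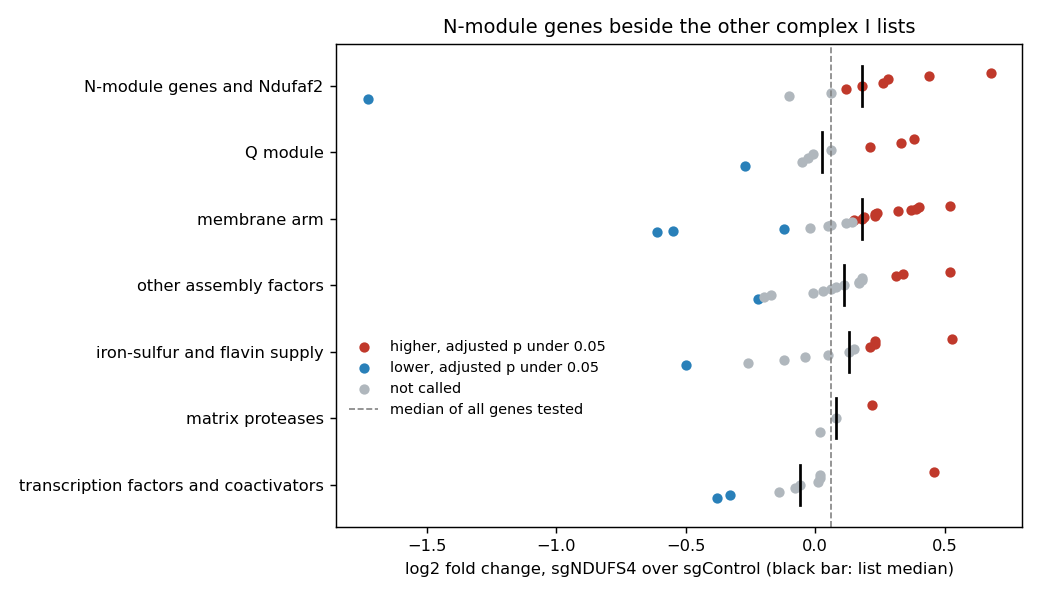
Log2 fold change, sgNDUFS4 over sgControl (x axis), of each tested gene by list (rows), with red for called higher, blue for called lower and grey for not called. Black bars are list medians and the dashed line is the median of all genes tested, 0.06. Ndufs4 lies at -1.73, and all genes of the other lists lie between -0.61 and 0.53.

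Among 15 other tested assembly factors of complex I, 3 were higher and 1 was lower, with a median of 0.11. All genes tested had shares of 31.8% higher and 20.3% lower. After centring on neighbours 1 was higher and 2 were lower, against 21.4% and 22.8% of all genes. The number lower was also 2 with the replicate block and DESeq2 and 3 with edgeR, which called 25.9% of all genes lower. The replicate block called 2309 of all genes lower and DESeq2 2767. Acad9, which acts on the membrane arm, and Tmem186 rose by log2 values of 0.31 and 0.52, and Acad9, on chromosome 3, was at -0.09 after centring and did not pass (limma adjusted p = 0.2). Tmem70 fell by 0.22. Without sgControl replicate 2 the number lower was 2. Ecsit was at 57.8 ± 1.67 CPM in sgNDUFS4 and 58.5 ± 3.68 CPM in sgControl (limma adjusted p = 0.86). With TMM scaling 2 of the 15 were higher and 3 lower, against 24.8% and 25.9% of all genes.

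The genes that supply iron-sulfur clusters and flavin to the N-module went both ways, with 4 of 11 higher, 1 lower and a median of 0.13. Shares over all genes tested were 31.8% higher and 20.3% lower, so that a call by itself was common. Without sgControl replicate 1, without sgNDUFS4 replicate 1 and with TMM scaling, edgeR and DESeq2, only 2 were higher. The number lower was 2 with TMM, edgeR, DESeq2, no trend and centring. The shares of all genes higher and lower were 24.8% and 25.9% with TMM and 24.6% and 25.9% with edgeR. They were 21.4% and 22.8% with centring. DESeq2 called 2603 of all genes higher and 2767 lower. Glrx5, a glutaredoxin of mitochondrial iron-sulfur cluster synthesis, was at 57.36, 58.3 and 55.65 CPM in sgNDUFS4, against 85.51, 91.07 and 68.01 CPM in sgControl, with a log2 change of -0.50 (limma adjusted p = 2.3e-06). The groups did not overlap, and sgControl replicate 3 was the lowest of its group. Nfu1, a late cluster carrier, rose by 0.21, and Lyrm2, which in human cells helps the N-module to assemble, rose by 0.53 on the log2 scale. Bola3 was at 53.5 ± 1.94 CPM in sgNDUFS4 and 48.9 ± 3.73 CPM in sgControl (limma adjusted p = 0.089), and was called higher without sgControl replicate 2 (limma adjusted p = 0.032). Of the matrix proteases that remove N-module subunits, Lonp1 rose by 0.22 on the log2 scale (limma adjusted p = 7.2e-06), and after centring it was at 0.09 and did not pass (limma adjusted p = 0.078). Clpp was at 78.0 ± 5.42 CPM in sgNDUFS4 and 76.9 ± 1.41 CPM in sgControl (limma adjusted p = 0.81), and Clpx did not pass.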

How the data were processed

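The deposited table gives CPM per gene and library, scaled by the authors to the reads counted in genes. The submitters' processing notes name HISAT2 and GRCm38. For the counting tool, annotation and filters: not given in the sources used here. CPM values were whole multiples of 1 read (99.992% to 100% of values above 0, tolerance 0.01), so that reads could be recovered, and edgeR called 2723 genes higher and 2860 lower on them.

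The test was limma, with its mean-variance trend, on log2(CPM + 0.5) of the 11063 genes whose mean reached 1 CPM. It was two-sided, and Benjamini-Hochberg adjusted p-values under 0.05 over these genes were called. Alternatives were other pseudocounts and filters, TMM scaling, no trend, edgeR and DESeq2 on recovered reads, centring on 50 neighbours, a replicate block and leaving out each library. The fits were tested on simulated data. Positions and exon lengths came from GENCODE M21 (GRCm38) by symbol, for 10894 of the tested genes. Copies were sought with blastn 2.17.0 among GENCODE transcripts (at least 100 bases at 90% identity). Fits ran in R 4.3.3 with DESeq2 1.42.0, edgeR 4.0.16 and limma 3.58.1.

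The members and lists were chosen with earlier results of these data known. Named genes are the 9 members, up to 3 called genes with the smallest p and 1 uncalled gene per list, opposite-strand genes that start within 1000 bases and point away (Mrpl36 and Eef1b2, whose starts overlap the member, were added after their values were seen), the 3 nearest tested coding genes on each side of Ndufs4, and the 3 closest profiles to Ndufs4 and Ndufs6. Some genes that this rule names are not reported here. No library was a duplicate: the chi-square of read counts per gene was 3.53 to 5.31 between replicates, above sampling noise, and 44.5 to 53.6 across groups. The labels do not say that replicates are separate cultures, so the p-values cover only library-to-library spread, possibly technical.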

Additional observations from a re-analysis of the deposited data

How the results depend on the processing

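Ndufs4 was lower and Ndufs6, Ndufv3, Ndufv1 and Ndufa2 were higher, past the threshold, in each of the 16 alternatives to the limma test on deposited CPM. Ndufaf2 was higher in all but the centring on neighbours, where it was at -0.17. The number of members called lower was 1 and became 2, with Ndufa12 added, under TMM scaling, edgeR, DESeq2 and centring, and lay between 1 and 2 with a library left out. Ndufs1 lost its call under TMM, edgeR, DESeq2, the fit without trend and without sgControl replicate 2. The number of members higher lay between 5 and 6 with a library left out. Over all genes, 3514 were called higher (3024 to 3388 with a library left out) and 2241 lower (1959 to 2193), against 2326 higher after centring, where fewer genes (10881) were tested. Among other named genes, Ndufb11 turned to 0.25, Acad9 to -0.09 and Snx18 to -0.07 after centring. The order of members by level per length kept 4 of 9 ranks with the longest transcript. Deviations of same-numbered libraries were only weakly correlated (0.056, 0.012 and 0.097), beside -0.087 to 0.035 between different numbers. Whether the replicate numbers pair the libraries was not tested. With the replicate block 6 members were higher and 1 lower, and over all genes 3632 were higher and 2309 lower. The log2 difference of the Ndufaf2 to Ndufa12 ratio lay between 0.35 and 0.44 with a library left out and was 0.39 with the block (exact p = 0.25), where the design cannot reach 0.05.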

Other observations

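Transcription factors and coactivators of nuclear respiratory genes were tested for 9 of 9 listed genes, of which 1 was higher and 2 were lower, with a median log2 change of -0.06. Shares over all genes tested were 31.8% higher and 20.3% lower. Nrf1, a factor that binds many promoters of respiratory chain genes, averaged 46.0 ± 2.11 CPM in sgNDUFS4 and 58.1 ± 0.95 CPM in sgControl (SD, n = 3 each, limma adjusted p = 4.1e-05). Ppargc1a, the coactivator PGC-1 alpha, was at 40.98, 38.1 and 45.82 CPM in sgNDUFS4, against 30.56, 26.25 and 33.62 CPM in sgControl, with a log2 change of 0.46 (limma adjusted p = 5.6e-05). Gabpb2 was at 8.28 ± 1.67 and 10.8 ± 0.764 CPM in sgNDUFS4 and sgControl (limma adjusted p = 0.024), and the groups overlapped, with the call lost in 6 alternatives, among them 4 of the 6 fits without a library (limma adjusted p between 0.05 and 0.14). Pprc1 was at 166 ± 8.0 CPM in sgNDUFS4 and 166 ± 9.84 CPM in sgControl (limma adjusted p = 0.88). With TMM scaling 1 of the 9 was higher and 3 were lower, against 24.8% and 25.9% of all genes. Without sgControl replicate 2 or sgNDUFS4 replicate 2 only 1 was lower.

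Among the tested coding genes whose values over the 6 libraries lay closest to those of Ndufs4, by the Euclidean distance of centred log2(CPM + 0.5) values, were Atrx and Pbdc1, at distances of 0.163 and 0.217. Both are on chromosome X. Atrx, a chromatin remodeller, was at 74.76, 69.38 and 79.55 CPM in sgNDUFS4, against 243.4, 244.7 and 251.0 CPM in sgControl. The genes closest to Ndufs6 were Mcoln1, Hist3h2a and Myo19, at 0.0689, 0.0779 and 0.0855. Myo19, a myosin that binds mitochondria, was at 64.1, 63.24 and 63.86 CPM in sgNDUFS4, against 38.77, 39.53 and 38.43 CPM in sgControl. With 6 libraries in 2 groups these distances mostly reflect the difference between the groups.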
